A study of Cavia porcellus with 12 samples.

Results

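The 10 genes described here encode the transcription factors of activator protein 1 (AP-1) and 2 kinases of the stress pathway that feeds it, measured in the livers of guinea pigs with nonalcoholic steatohepatitis (NASH) and of controls. They are the JUN proteins *JUN*, *JUNB* and *JUND*, the FOS proteins *FOS*, *FOSB*, *FOSL1* and *FOSL2*, the related factor *ATF3*, and the kinases *MAPK8* (JNK1) and *MAP3K5* (ASK1). They were chosen by their known function, with earlier results of these data known. All 10 of the 10 names were rows among the 11896 genes of the deposited table with human symbols. The samples were left lateral lobe tissue of 6 female Dunkin Hartley guinea pigs on a high-fat diet rich in sucrose and cholesterol, all with bridging fibrosis, and of 6 randomly picked chow-fed controls without NASH or fibrosis, after 25 weeks on either diet. All animals were of the same age at the start, came from a single breeder and carried no transgene, and the livers were not perfused. Each sample was a separate animal, named here by its number.

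AP-1 is a dimer of basic leucine zipper proteins. JUN proteins can pair with each other or with a FOS or ATF protein, whereas FOS proteins need a JUN partner to bind DNA. Many of these genes are immediate early genes, transcribed within minutes of a growth factor, cytokine or stress signal and silenced soon after, while *FOSL1* and *FOSL2* usually follow later and last longer. ASK1 is a kinase held inactive by reduced thioredoxin. On oxidative stress it activates the kinases MKK4 and MKK7, which in turn activate JNK, and JNK phosphorylates JUN. In the liver this cascade is known for its part in lipotoxic injury, and ASK1 has been a drug target in NASH.

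Library totals ranged from 16980274 to 28636467 counts in the control group and from 23704607 to 33091460 counts in the NASH group. Values are given in CPM, the count of a gene relative to the size of its library, after TMM scaling, which adjusts that size for composition, and the TMM factors were 0.804 to 0.875 in controls and 1.12 to 1.24 in NASH. Levels of different genes were not compared, because CPM carries no gene length. A gene without a count could still hold up to 3 counts, or at most 0.214 CPM in a control, by counting error alone. Of the 8 hepatocyte markers tested, 7 were lower and 0 higher in NASH, and *ALB* was at 74880 CPM on average in controls and at 30530 CPM in NASH, so both groups carried the labelled tissue. Libraries of controls and of animals with NASH differed in cellular makeup as far as markers show it, and in bulk tissue fewer cells of a type and less RNA per cell cannot be told apart. Of the 10 genes, none shared its count row with another symbol.

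Of the 10 genes, *FOSL1*, *ATF3* and *FOSL2* were higher in NASH, and *MAP3K5* and *MAPK8* were lower, at a Benjamini-Hochberg adjusted p-value under 0.05 in edgeR's quasi-likelihood test over all 11896 genes. The other 5 genes, among them *JUN* and *FOS*, did not pass this threshold. Over all genes tested, 27.9% were higher and 26.0% were lower by the same test, so 3 higher and 2 lower of 10 lie near the background. The median log2 fold change of the 10 genes was −0.02, beside 0.0018 over all genes. The SD of log2 CPM of *JUN*, *FOS* and *FOSB* was larger than that of at least 96.9% of all genes in either group. Of the 5 members that passed, 3 did not overlap between groups (2 above and 1 below the controls, beside 18.4% and 15.3% of all genes) and 2 overlapped through a single animal.

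**Figure D1:**
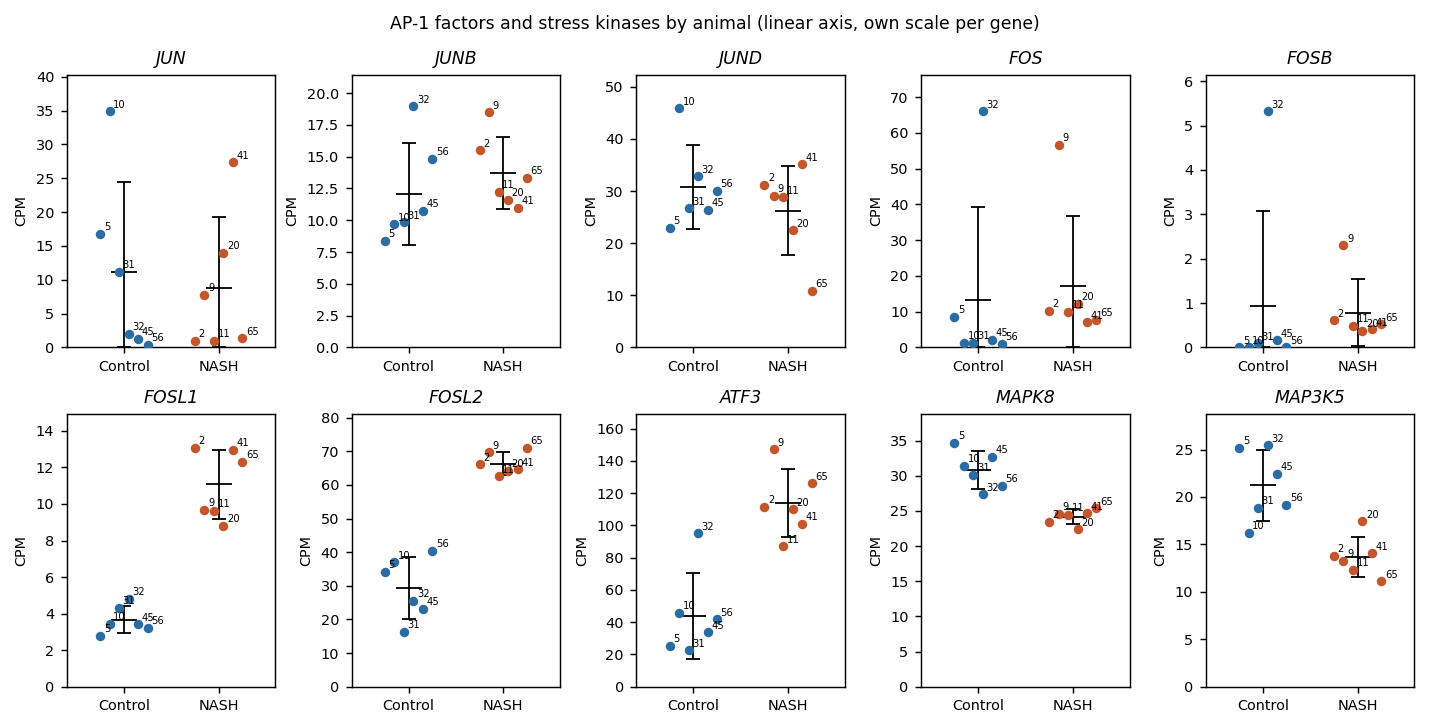
Level of each of the 10 genes in CPM, on a linear axis with its own scale, in 6 controls (blue) and 6 guinea pigs with NASH (orange); points are animals with their numbers, and the black bars are the mean and the SD, cut at 0. *FOSL1*, *FOSL2* and *MAPK8* show no overlap between groups, Control 32 and NASH 9 stand high in *FOS* and *FOSB*, and *JUN* is spread widely in both groups.

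*FOSL1* encodes FRA1, a FOS protein without the strong activation domain of FOS. Its level was between 2.79 and 4.82 CPM in controls, with a median of 3.43, and between 8.82 and 13.1 CPM in NASH, with a median of 11. The groups did not overlap. The mean ± SD was 3.67 ± 0.755 CPM in controls and 11.1 ± 1.90 CPM in NASH (n = 6 each), a rise of 3.0-fold or 1.58 on the log2 scale (SE 0.15, edgeR adjusted p = 3.11e-06). The lowest library of a control held 39 counts of the gene, and that of an animal with NASH held 283.

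*FOSL2* encodes FRA2, known for its part in fibrosis of several organs. It was between 16.3 and 40.5 CPM in controls (median 29.9) and between 62.6 and 71.0 CPM in NASH (median 65.4), again without overlap. The controls thus spread widely and the animals with NASH hardly at all, with SDs of 0.49 and 0.07 on the log2 scale. The SD in NASH was larger than that of 4.99% of all genes, and the SD in controls larger than that of 82.7%. Means were 29.5 ± 9.25 and 66.4 ± 3.31 CPM (SD, n = 6 each), a rise of 2.26-fold or 1.17 on the log2 scale (SE 0.18, edgeR adjusted p = 0.000154). Such a separation upwards was found in 18.4% of all genes tested, and among the 10 genes in *FOSL1* and *FOSL2*.

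*ATF3* encodes a stress-induced factor that pairs with JUN proteins and often represses its targets. Its level was between 22.6 and 95 CPM in controls, with a median of 37.7, and between 87.1 and 147 CPM in NASH, with a median of 111. Control 32, at 95 CPM, lay above NASH 11 at 87.1 CPM, and the other 5 controls reached at most 45.8 CPM. Means were 44.0 ± 26.5 and 114 ± 20.9 CPM (SD, n = 6 each), a rise of 2.58-fold or 1.37 on the log2 scale (SE 0.31, edgeR adjusted p = 0.00228). *FOSL1*, *FOSL2* and *ATF3* passed the threshold in each of 22 alternatives of normalisation, tool, filter and left-out animals, with adjusted p-values from edgeR, limma or DESeq2 of at most 1.67e-05, 0.00143 and 0.0064. Without Control 32 and NASH 9, their log2 fold changes were 1.71, 1.12 and 1.66.

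Markers of non-parenchymal cells moved alongside these 3 rises. Of 10 stellate cell and myofibroblast markers tested, 8 were higher and 0 lower, and their summed level was 710 to 841 CPM in controls and 1586 to 3227 CPM in NASH. Of 6 cholangiocyte markers, 5 were higher and 0 lower, with sums of 93.2 to 142 CPM and 331 to 580 CPM. Of 7 macrophage markers, 4 were higher and 1 lower, with sums of 333 to 428 CPM and 453 to 553 CPM. Over all genes tested, 27.9% were higher and 26.0% lower. None of these markers had a group mean of 0. The part of these cells in the rise of *FOSL1*, *FOSL2* and *ATF3* was not tested.

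*FOS* encodes c-FOS, the prototype of an immediate early gene. Its level was 1.01, 1.26, 1.33, 2.14 and 8.65 CPM in 5 of the controls and 66.1 CPM in Control 32. In NASH it was between 7.04 and 12.2 CPM in 5 animals and 56.8 CPM in NASH 9. In each group 1 animal stood far above the others, and the median was 1.74 CPM in controls and 10.1 CPM in NASH. With all animals the log2 fold change was 0.36, with a 95% confidence interval from −1.83 to 2.55 (SE 1.01, adjusted p = 0.784 from edgeR), so neither a clear fall nor a clear rise was detectable. The alternatives ranged from −0.52 without NASH 9 to 2.64 without Control 32 (adjusted p from 0.0121 to 0.932 from edgeR and limma, while DESeq2 gave none). Without both of these animals, a choice made after the values were seen, it was 1.75 (SE 0.54, adjusted p = 0.0198 from edgeR).

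*FOSB*, whose product is a close relative of c-FOS, followed the same animals at few counts. Controls 5, 10 and 56 had no count, Controls 31 and 45 had 2 and 4 counts, and Control 32 had 116. The animals with NASH had 12, 15, 15, 16 and 18 counts, and NASH 9 had 79. In CPM this was up to 0.165 in 5 controls against 5.32 in Control 32, and 0.374 to 0.612 in 5 animals with NASH against 2.31 in NASH 9. Thus all animals with NASH lay above 5 of the 6 controls, and Control 32 lay above all animals with NASH. The log2 fold change over all animals was −0.29, with a 95% confidence interval from −2.68 to 2.09 (adjusted p = 0.839 from edgeR). It turned to 3.58 without Control 32 (adjusted p = 0.00403 from edgeR) and to 2.86 without both animals (adjusted p = 0.00338 from edgeR). Adjusted p-values from edgeR and limma ran from 0.00338 to 0.925 over the alternatives, and DESeq2 gave none. Without Control 32 and NASH 9, 5 of the 10 genes were higher and 2 lower, against 3 and 2 with all animals, while 25.6% of all genes were higher and 23.2% lower in that fit.

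**Figure D2:**
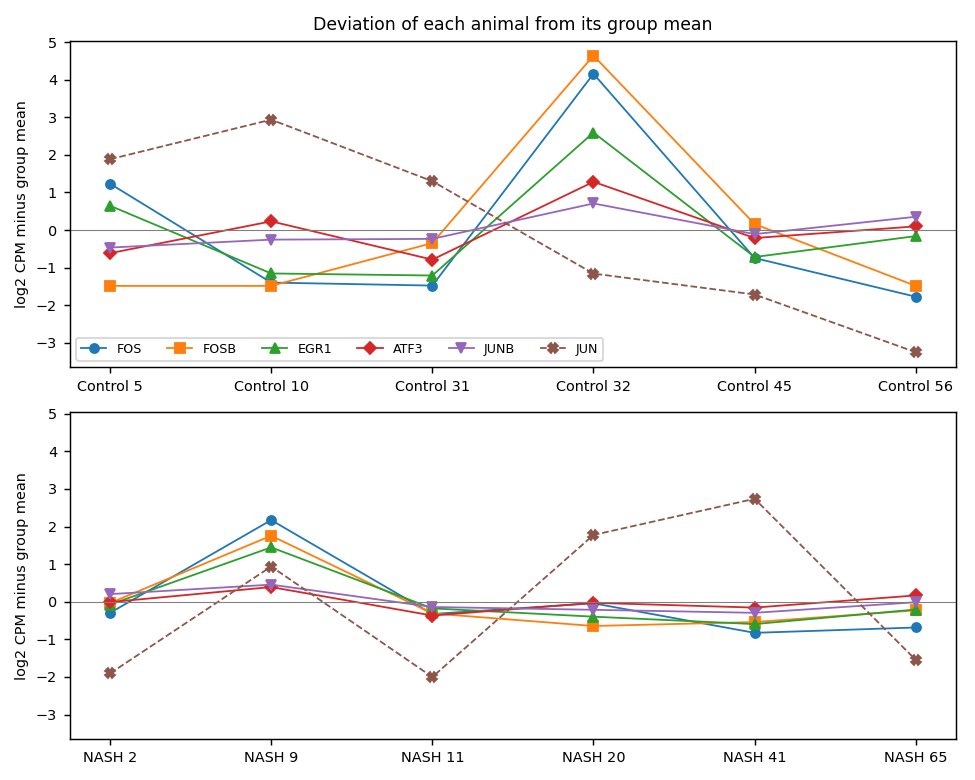
Deviation of each animal from its group mean in log2 CPM, for controls (top) and guinea pigs with NASH (bottom); lines join the values of 1 gene and carry no order of animals. Control 32 and NASH 9 are the highest of their groups in *FOS*, *FOSB*, *EGR1*, *ATF3* and *JUNB*, while *JUN* (dashed) follows other animals.

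*JUNB* encodes a JUN protein that restrains c-JUN in several settings. It was between 8.36 and 19.0 CPM in controls (median 10.3) and between 11 and 18.5 CPM in NASH (median 12.8), and the groups overlapped. Control 32 and NASH 9 again had the highest value of their groups. The log2 fold change was 0.18, with a 95% confidence interval from −0.26 to 0.62 (adjusted p = 0.473 from edgeR). *JUND*, the JUN protein expressed steadily in resting cells, was between 22.9 and 45.9 CPM in controls (median 28.4) and between 10.8 and 35.2 CPM in NASH (median 29.0). NASH 65, at 10.8 CPM, was the lowest of all animals. Its log2 fold change was −0.23, with a 95% confidence interval from −0.77 to 0.31 (adjusted p = 0.456 from edgeR).

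*JUN* encodes c-JUN, the main substrate of JNK among the AP-1 factors. Its level in controls was 0.404, 1.32, 1.97, 11.2, 16.8 and 34.9 CPM, and in NASH it was 0.950, 1.02, 1.33, 7.80, 14 and 27.3 CPM. In each group 3 animals lay under 2 CPM and 3 lay above 7 CPM, so that the spread within a group was far wider than any difference between groups. The highest control, Control 10, exceeded the lowest, Control 56, by 86.5-fold, and the highest and lowest animals with NASH differed by 28.8-fold. These values rested on 6 to 681 counts in controls and on 29 to 1072 counts in NASH. The SD of log2 CPM of *JUN* exceeded that of 99.8% of all genes in controls and of 99.7% in NASH. The log2 fold change was −0.33, with a 95% confidence interval from −2.53 to 1.87 (SE 1.01, adjusted p = 0.801 from edgeR). Neither a 2-fold rise nor a 2-fold fall lay outside this interval. The row counted as *JUN* is an assembled locus, and whether it covers the whole gene, and whether reads mapped to it alike in every animal, was not tested.

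The 3 genes whose values went most closely with *FOS* over the 12 animals, after centring within each group, were *CCN1* (Pearson's r of rlog values 0.97), *EGR1* (0.97) and *FOSB* (0.93). *CCN1* encodes a matrix-associated signalling protein and *EGR1* a zinc finger factor, both induced within minutes of a stimulus. Over the 10 animals without Control 32 and NASH 9, the same values were 0.73, 0.78 and −0.10. For *JUN* the closest genes were *PLCE1* (0.89), *CHCHD4* (0.84) and *FAM98A* (0.81), and without those animals the values were 0.91, 0.87 and 0.85. These are descriptions over animals that share library and depth with every gene.

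Within the groups, *FOS* was compared with *JUN*, *JUNB*, *ATF3* and *EGR1*, giving 8 relations of 6 animals each, whose two-sided p-values come from all 720 pairings (exact permutation). With *EGR1*, Pearson's r was 0.97 in controls (exact p = 0.0153, adjusted p = 0.122) and 0.97 in NASH (exact p = 0.0431, adjusted p = 0.172), and Spearman's rho was 0.66 in both (exact p = 0.175, adjusted p = 0.645). Without the 2 animals farthest from the median of *FOS*, r was −0.14 in controls and −0.50 in NASH. Few animals with a narrower range of *FOS* remain there, so these values cannot show whether the relation holds without those animals. The centred value over 10 animals given above, 0.78, left out Control 32 and NASH 9 alone. With *ATF3*, r was 0.72 in controls (exact p = 0.121) and 0.70 in NASH (exact p = 0.15), with rho at 0.31 (exact p = 0.564) and 0.49 (exact p = 0.356), and r fell to −0.08 and −0.39 without the farthest animals. With *JUNB*, r was 0.60 in controls (exact p = 0.224) and 0.81 in NASH (exact p = 0.0653), with rho at 0.03 (exact p = 1) and 0.60 (exact p = 0.242), and r was −0.34 and −0.38 without them. With *JUN*, r was −0.21 in controls (exact p = 0.765) and 0.11 in NASH (exact p = 0.932), with rho at 0.26 (exact p = 0.658) and −0.09 (exact p = 0.919), and r was −0.25 and 0.72 without them. None of the 8 relations passed the correction, the lowest adjusted values being 0.122 for r and 0.645 for rho by the exact test.

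*MAPK8* encodes JNK1, which phosphorylates JUN. Its level was between 27.4 and 34.7 CPM in controls, with a median of 30.8, and between 22.4 and 25.4 CPM in NASH, with a median of 24.5. All 6 animals with NASH lay below all 6 controls, as was the case for 15.3% of all genes tested. Means were 30.8 ± 2.68 and 24.2 ± 1.07 CPM (SD, n = 6 each), or −0.35 on the log2 scale (SE 0.07, edgeR adjusted p = 0.000841). Its SDs on the log2 scale, 0.12 in controls and 0.06 in NASH, were the lowest of the 10 genes.

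*MAP3K5* encodes ASK1, the redox-sensing kinase at the top of the cascade. It was between 16.2 and 25.4 CPM in controls (median 20.8) and between 11.1 and 17.4 CPM in NASH (median 13.5). The groups met in a single animal with NASH, NASH 20 at 17.4 CPM, which lay above Control 10 at 16.2 CPM. Means were 21.2 ± 3.73 and 13.7 ± 2.14 CPM (SD, n = 6 each), or −0.63 on the log2 scale (SE 0.13, edgeR adjusted p = 0.0013). Library size alone is a scaling that moves the median of all genes to 0.48. With it, *MAPK8* was at 0.13 (adjusted p = 0.0848 from edgeR) and *MAP3K5* at −0.15 (adjusted p = 0.34 from edgeR). Neither passed the threshold, and they lay 0.35 and 0.63 below that median. This scaling shifts all genes by nearly the same amount, so these distances were bound to lie near the values with TMM factors. In the other 21 of 22 alternatives both genes were lower and passed the threshold. Of the 8 hepatocyte markers tested, 7 were lower as well, from −0.18 for *ASGR1* to −1.29 for *ALB* and −2.20 for *TTR* on the log2 scale. The median of the 8 was −0.86, and the part of these markers in the result was not tested.

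**Figure D3:**
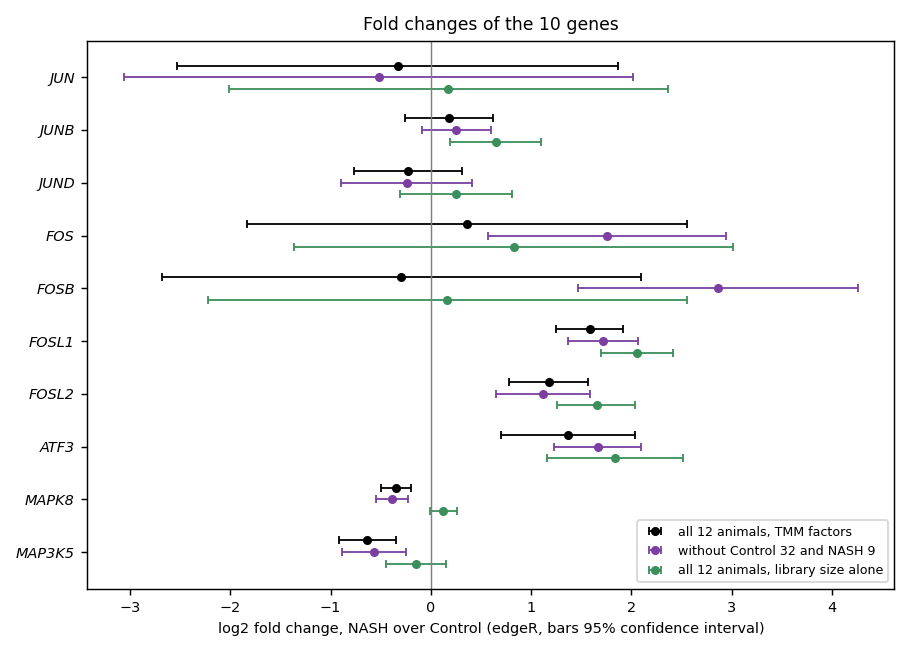
Log2 fold change of each of the 10 genes, NASH over control, from edgeR with 95% confidence intervals, for all 12 animals with TMM factors (black), without Control 32 and NASH 9 (purple) and with library size alone (green). *FOSL1*, *FOSL2* and *ATF3* stay right of 0 in all 3 fits, the intervals of *JUN* span 0 widely, and *FOS* and *FOSB* move right of 0 without the 2 animals.

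The rest of the JNK cascade was represented by 22 tested genes of 26 listed, of which 7 were higher and 4 lower (median 0.13 on the log2 scale). Beside 27.9% and 26.0% of all genes, these counts lie near the background. The 4 that fell were *MAPK9*, which encodes JNK2, from 37.6 ± 3.12 to 26.2 ± 4.06 CPM (SD, n = 6 each; log2 fold change −0.52, adjusted p = 0.000921 from edgeR), *MAP2K4*, which encodes MKK4 (−0.45, adjusted p = 0.000208 from edgeR), the scaffold *MAPK8IP1* (adjusted p = 0.0378 from edgeR), and *MAP2K7*, which encodes MKK7 (−0.15, adjusted p = 0.0445 from edgeR). With library size alone none of the 4 was lower, and *MAP2K7* was higher at 0.32 (adjusted p = 0.000992 from edgeR), although the typical gene lay higher there, at a median of 0.48. *MAP2K7* passed as changed in 9 of 22 alternatives, and without Control 32 and NASH 9 together 2 genes of the list were lower. The genes that rose most were upstream kinases. *MAP4K1*, a kinase of blood cells, averaged 6.31 ± 1.97 CPM in controls and 20.4 ± 2.19 CPM in NASH (SD, n = 6 each), a rise of 3.22-fold (edgeR adjusted p = 1.83e-05), and *MAP4K4*, *MAP3K1* and *MAP3K8* rose by 0.95, 0.81 and 0.69 on the log2 scale.

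Regulators of ASK1 were represented by 12 tested genes of 13 listed. Of these, 4 were higher and 1 lower (median log2 change −0.03), beside 27.9% and 26.0% of all genes. *TXN*, the thioredoxin that holds ASK1 inactive, was between 23.5 and 30.2 CPM in controls and between 17.7 and 22.9 CPM in NASH. All animals with NASH lay below all controls, as in 15.3% of all genes tested. The log2 fold change of *TXN* was −0.39 (SE 0.08, edgeR adjusted p = 0.00104). It was 0.08 with library size alone, or −0.39 relative to the median of that scaling. *TXNIP*, which binds thioredoxin, averaged 151 CPM in controls and 183 CPM in NASH (adjusted p = 0.243 from edgeR, and 0.0428 without Control 56). *TNFAIP3*, a brake on inflammatory signalling also known as A20, rose by 1.12, *CFLAR*, an inhibitor of caspase-8, by 0.73, and the adaptors *TRAF6* and *TRAF5* by 0.60 and 0.50 on the log2 scale, *TRAF6* passing in 15 of 22 alternatives.

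The p38 arm, a parallel stress kinase branch that ASK1 also feeds, had 11 tested genes of 12 listed. Of these, 6 were higher and 2 lower (median log2 change 0.27), beside 27.9% and 26.0% of all genes. The p38 isoforms went apart. *MAPK14*, which encodes p38α, was between 77.8 and 102 CPM in controls and between 51.3 and 72.1 CPM in NASH. Its log2 fold change was −0.41 (adjusted p = 0.00271 from edgeR). It was 0.06 with library size alone, or −0.41 relative to the median of that scaling. *MAPK13* (p38δ) averaged 0.504 ± 0.240 CPM in controls and 2.86 ± 0.748 CPM in NASH (SD, n = 6 each), a rise of 2.46 on the log2 scale (edgeR adjusted p = 1.79e-05). *MAPK12* (p38γ), the p38 activator *MAP2K6* and *MAPK11* (p38β) rose by 1.72, 1.72 and 0.79 on the log2 scale. *MAPK11* passed in 20 of 22 alternatives, and failed without Control 10 and without NASH 2, with edgeR adjusted p up to 0.0544. The ERK arm had 10 tested genes of 13 listed, 6 higher and 1 lower (median log2 change 0.27), beside 27.9% and 26.0% of all genes. Of the 10, 3 shared their count row with another symbol. *RPS6KA1*, which encodes the ERK effector RSK1, rose 4.30-fold. *SRF*, whose product drives *FOS* transcription and which shares its row, rose by 0.86, *ELK3* by 0.66 (13 of 22 alternatives) and *RPS6KA3* by 0.43 on the log2 scale. *ELK4* had the lowest value, −0.89 (adjusted p = 0.358 from edgeR).

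Phosphatases that switch off MAP kinases were represented by 10 tested genes of 12 listed. Of these, 5 were higher and 1 lower (median log2 change 0.54), beside 27.9% and 26.0% of all genes. *DUSP4* averaged 15.5 ± 8.48 CPM in controls and 69.2 ± 30.5 CPM in NASH (SD, n = 6 each), a rise of 2.17 on the log2 scale (edgeR adjusted p = 0.00048), and *DUSP10* and *DUSP2* rose by 1.87 and 1.18. *DUSP1*, the immediate early phosphatase of JNK and p38, went the other way. It was between 76.5 and 226 CPM in controls (median 140) and between 66.8 and 106 CPM in NASH (median 76.8), and the groups overlapped. Means were 149 ± 55.2 and 83.3 ± 15.7 CPM (SD, n = 6 each), or −0.84 on the log2 scale (SE 0.23, edgeR adjusted p = 0.00806). Among its 22 alternatives it failed the threshold with library size alone, at −0.37, which is −0.84 relative to the median of that scaling.

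Of the other immediate early genes, 16 of 21 listed were tested, 10 higher and 2 lower (median log2 change 1.79), beside 27.9% and 26.0% of all genes. The part of the cell types whose markers rose in these changes was not tested. *CCN1* averaged 4.69 ± 5.39 CPM in controls and 46.5 ± 16.3 CPM in NASH (SD, n = 6 each), a rise of 3.30 on the log2 scale (SE 0.53, edgeR adjusted p = 0.000211) that became 4.24 without Control 32. *EGR3*, *EGR2* and *NR4A3*, all transcription factors, rose by 3.22, 3.22 and 2.52 on the log2 scale, *EGR2* by 3.96 without Control 32. *EGR1* was between 4.19 and 59.4 CPM in controls (median 7.34) and between 32.6 and 134 CPM in NASH (median 43.1). Control 32, at 59.4 CPM, lay above each animal with NASH other than NASH 9, at 134 CPM. *EGR1* rose by 1.78 on the log2 scale (SE 0.67, edgeR adjusted p = 0.0389), which ranged from 1.31 to 2.88 when 1 animal was left out, and 14 of 22 alternatives passed the threshold. *GADD45G* and *GADD45B*, which encode regulators of the JNK and p38 cascades, fell by 2.05 and 1.24 on the log2 scale. *GADD45A*, of the same family, went the other way and rose by 1.975 (edgeR adjusted p = 6.93e-06). *GADD45G* passed in 20 of 22 alternatives, and without Control 56 it was at −1.24 (edgeR adjusted p = 0.0576). The counts of 10 and 2 were the same without Control 32 and NASH 9.

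Genes widely described as AP-1 targets, which answer to other factors too, had 11 tested members of 16 listed, and 11 were higher and 0 lower in NASH (median log2 change 1.54), beside 27.9% and 26.0% of all genes. The stellate cell, cholangiocyte and macrophage markers given above rose beside them in 8 of 10, 5 of 6 and 4 of 7 genes, and their part in the result was not tested. The gene *SPP1* is also on the cholangiocyte list. The chemokine genes *CCL2* and *CXCL8* rose by 5.93 and 2.88 on the log2 scale, the protease inhibitor *TIMP1* by 2.20 and *SPP1*, which encodes osteopontin, by 1.98. *CCL2* had 2 to 23 counts in controls, and its value was 6.58 without Control 32. *HMOX1*, which encodes haem oxygenase 1, had the lowest value of the list, 0.83 (adjusted p = 0.00107 from edgeR). Further partners of the bZIP class had 11 tested genes of 15 listed, 2 higher and 0 lower, beside 27.9% and 26.0% of all genes. The 2 were *CREB1* (0.87, adjusted p = 0.0237 from edgeR) and *JDP2*, a repressor that pairs with JUN (0.68, adjusted p = 0.0129 from edgeR). Without Control 32 and NASH 9 *CREB1* no longer passed (edgeR adjusted p = 0.0688).

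**Figure D4:**
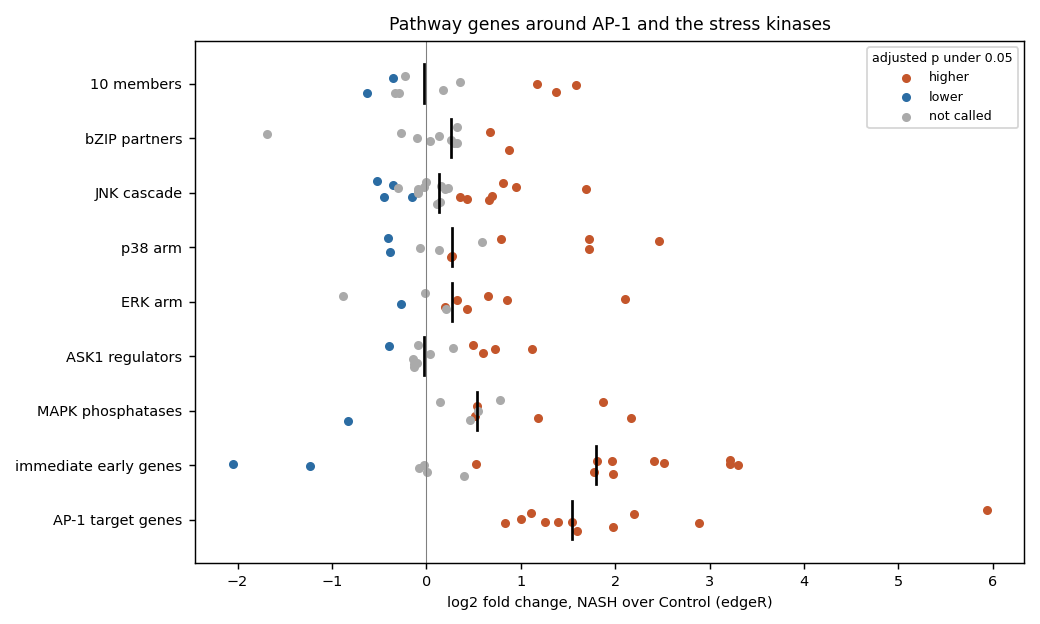
Log2 fold change, NASH over control, from edgeR for the 10 genes and for the tested genes of 8 pathway lists; each point is a gene, coloured by whether it was higher, lower or not past an adjusted p of 0.05, and black lines are list medians. The immediate early genes and AP-1 targets lie furthest to the right, with medians of 1.79 and 1.54, while the 10 genes have a median of −0.02.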

How the data were processed

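Liver mRNA of 12 guinea pigs was sequenced from a single end in strand-specific libraries, and groups were taken from the sample titles. Read trimming used Trimmomatic and mapping used HISAT2 on Cavpor3.0. The authors dropped multimapped reads and assembled loci with StringTie, whose raw counts per locus they deposited. Whether counting used strand is not given in the sources used here, and a locus can hold more than 1 gene. The authors also deposited log2 values from DESeq2's rlog transformation, under human symbols and for genes with at least 200 counts. Symbols were tied to count rows by repeating rlog on the counts until values differed by at most 8.4e-07, which matched all 11896 symbols to 11031 rows. 

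Counts were tested with edgeR 4.0.16 in R 4.3.3 (TMM, library size the total of the count table, glmQLFit with robust estimation, glmQLFTest, Benjamini-Hochberg threshold 0.05), and rlog values were used for relations between genes. Log2 CPM has a prior count of 2, and the limit for a count of 0 is 3 counts. Intervals cover 95%. Members, lists and tests were chosen with earlier results of these data known. Named genes are the 10 members, their direct partners, and in each list the 4 largest changes past the threshold with the highest and lowest gene, of which 1 is not reported here. *MAPK8IP1*, *GADD45A*, *GADD45B* and the cell type markers named were added after their values were seen. Alternatives were RLE, upper-quartile and no factors, DESeq2 1.42.0, limma 3.58.1 (voom and rlog), other filters, a threshold of 0.01, exact permutation and each animal left out, with leaving out Control 32 and NASH 9 together chosen after seeing the data. Animals of a group differed by more than counting error in every pair. edgeR, DESeq2 and limma were tested on simulated counts with the same spread for all genes and as many rises as falls. That is a simpler setting than these data, and the other procedures were not simulated.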

Additional observations from a re-analysis of the deposited data

Results flagged for a closer look

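In 36 sets of 6 animals (the 10 genes and 8 partner genes in each group), the highest or lowest animal was set against the others by Dixon's test, which flags about 5% of sets of normally distributed values by chance. Control 32 stood above the other controls in *FOS* (66.1 CPM, next 8.65), *FOSB* (5.32 CPM, next 0.165), *ATF3* (95 CPM, next 45.8) and *EGR1* (59.4 CPM, next 15.4). NASH 9 stood above the other animals with NASH in *FOS* (56.8 CPM, next 12.2), *FOSB* (2.31 CPM, next 0.612), *EGR1* (134 CPM, next 46.7) and *TXNIP* (279 CPM, next 182). Control 31 stood above the other controls in *MAPK14* (102 CPM, next 82.1). On log2 CPM, a scale tried after seeing the data, 5 of these 9 values stood apart, and those of Control 32 in *FOS*, *EGR1* and *ATF3* and of NASH 9 in *TXNIP* did not. The labels give no sampling order or time, and what sets these animals apart was not tested.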

How the results depend on the processing

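With library size alone, genes higher in NASH numbered 7603 and genes lower in NASH numbered 911, 0 of the 10 genes were lower, and the log2 fold changes of *JUN* (0.17), *JUND* (0.25), *FOSB* (0.17), *MAPK8* (0.13), *MAP2K4* (0.025), *MAP2K7* (0.32), *MAPK14* (0.063) and *TXN* (0.083) turned positive. That scaling moves the median of all genes to 0.48. Relative to it *JUN*, *JUND*, *JUNB*, *FOSB*, *MAPK8*, *MAP2K4*, *MAP2K7*, *MAPK14* and *TXN* were at −0.30, −0.22, 0.17, −0.31, −0.35, −0.45, −0.15, −0.41 and −0.39. These values lie near those with TMM factors, as a nearly common shift of all genes brings about by itself. *JUNB* passed the threshold with library size alone (0.65, adjusted p = 0.0138 from edgeR). The higher genes of the bZIP, JNK, ASK1 and phosphatase lists became 8, 15, 10 and 8, and the lower genes of the JNK, p38, ERK, ASK1 and phosphatase lists became 0. With DESeq2, and with limma on rlog values, 1 bZIP partner was lower. *JUN* turned to 0.010 with limma-voom and ranged from −1.13 without NASH 41 to 0.49 without Control 10. *FOSB* turned to 2.19 with limma-voom, to 0.057 on rlog values (also by exact permutation), and to 2.86 without Control 32 and NASH 9 together, and ranged from −1.0 without NASH 9 to 3.58 without Control 32. *FOS* ranged from −0.52 without NASH 9 to 2.64 without Control 32. Without Control 32 and NASH 9 together, which also leaves fewer samples, 5 of the 10 genes were higher (25.6% of all genes), 1 bZIP partner was higher, and 2 genes of the JNK list and 0 of the ERK list were lower. With each animal left out in turn, 3 to 5 of the 10 genes were higher, 5 without Control 32, and 2 were lower. In these leave-one-out fits between 6046 and 6338 genes passed, 3123 to 3290 higher and 2894 to 3074 lower. The causes were not tested beyond the scaling itself. Over the 10 genes and 22 alternatives with an adjusted p at 0.05, 2 calls were lost, *MAPK8* and *MAP3K5* with library size alone, and 5 were gained, *JUNB* with library size alone, and *FOS* and *FOSB* without Control 32 and without both animals. DESeq2 gave no adjusted p-value for *FOS* and *FOSB*, and each was counted there as not passing. No paired analysis was possible because the groups share no animal numbers. The spread between animals limits *JUN*, *FOS* and *FOSB*.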

Other observations

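Other cell type markers also differed between the groups, beside 27.9% of all genes higher and 26.0% lower. All 5 erythroid markers tested were higher in NASH, with summed levels of 58.3 to 173 CPM in controls and 431 to 4560 CPM in NASH, in livers that were not perfused. Of 9 lymphocyte markers, the B cell genes *CD79A*, *CD79B* and *MS4A1* and the T cell gene *CD8A* were higher and *CD3E* was lower. Of 7 endothelial markers, 3 were higher, *VWF* most at 1.46 on the log2 scale, and *TEK* was lower at −0.36. Of 3 neutrophil markers, *S100A9* and *CSF3R* were higher, and the 3 summed to 0.974 to 3.76 CPM in controls and to 3.54 to 10.5 CPM in NASH.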
